A study of Mus musculus with 12 samples.

Results

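Axon guidance ligands and receptors were followed in mouse peri-infarct cortex after stroke, as the set of 69 genes, of 25238 in the count table, whose symbols belong to the semaphorins, plexins, neuropilins, ephrins, Eph receptors, Slits, Robos, netrins, Unc5 receptors or Dcc. The members were taken by family name only, with no expression value in the rule. The study treated mice with intracellular sigma peptide (ISP), which enters cells and blocks PTPσ, a neuronal receptor of inhibitory chondroitin sulfate proteoglycans, and asked what changed in the cortex next to the infarct. The groups were 4 ISP mice (12, 14, 16 and 18), given 1 μg/g/day of the peptide from day 1 after transient occlusion of the middle cerebral artery, 4 Veh mice (2, 6, 8 and 10), given 5% DMSO in saline, and 4 control mice (19, 21, 36 and 38). The ISP and Veh cortex was taken at day 14 after the stroke as micro-punches that were frozen, and each mouse gave 1 poly(A)-selected library. The methods give the stroke mice as adult males, without saying which of the study's strains gave the sequenced tissue. Which surgery and treatment the control mice had is not given in the sources used here, and their labels carry the same tissue name as the others, so the control group is used only under its label. For Veh, the methods and labels name vehicle, while the running text names a scrambled peptide.

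These families steer growing axons and, in the adult brain, shape synapses, myelin, vessels and immune cells. Semaphorins signal through plexins, and most of those of class 3 also need a neuropilin. Ephrins and Eph receptors are both held on the membrane and signal into both cells at a contact. Slits act on Robo receptors, and netrins attract axons through Dcc or repel them through Unc5 receptors. After a stroke, several of the repulsive members are known as limits on axonal sprouting next to the infarct.

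Total counts were 19325979 to 28685864 in ISP, 17442711 to 24706638 in Veh and 21322702 to 29845629 in control libraries. Marker lists showed neurons in all 12 libraries, with a summed level of 8 neuronal genes of 7061 to 8885 CPM (read counts scaled to library size) in ISP, 7867 to 8647 CPM in Veh and 8560.0 to 9125 CPM in control mice. These genes do not tell cortex from other neuronal tissue. A list of 8 genes of striatal projection neurons summed to 238 to 301 CPM in ISP, 229 to 253 CPM in Veh and 208 to 266 CPM in control mice. The summed level of 8 reactive astrocyte genes was 632, 1752, 369 and 2952 CPM in ISP mice 12, 14, 16 and 18, 229, 386, 182 and 778 CPM in Veh mice 2, 6, 8 and 10, and 74.7 to 84.2 CPM in control mice. ISP 14 and ISP 18 stood apart from the other 10 libraries on this list and on the list of 10 microglia and macrophage genes, at 1548 and 1428 CPM, where the other libraries lay between 274 and 685 CPM. The counts of calls in ISP with control, and the differences of several named genes, are given with and without these 2 mice.

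For 4 members on which the results turn most, the sequence before a RefSeq start is shown, 5′ to 3′ on the gene's strand, with matches to the motifs named next in capitals. Efna1, Plxnb1 and Slit2 were called in ISP against control whichever single library was left out, and Sema4d had the smallest p of all members between ISP and Veh. The sequences are from RefSeq on GRCm38.p6, start 250 bases before an annotated start, the one farthest upstream where there are several, and stop before the first exon base of the same gene in GENCODE release M21. The start used for Sema4d lies inside the gene as GENCODE annotates it, downstream of its 5′ end.
Efna1 (chr3:89281143-89281201, minus strand): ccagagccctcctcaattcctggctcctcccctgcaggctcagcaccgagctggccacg
Sema4d (chr13:51756803-51756933, minus strand): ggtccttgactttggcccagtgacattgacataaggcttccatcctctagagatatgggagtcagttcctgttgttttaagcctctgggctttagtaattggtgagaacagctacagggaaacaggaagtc
Plxnb1 (chr9:109095186-109095388, plus strand): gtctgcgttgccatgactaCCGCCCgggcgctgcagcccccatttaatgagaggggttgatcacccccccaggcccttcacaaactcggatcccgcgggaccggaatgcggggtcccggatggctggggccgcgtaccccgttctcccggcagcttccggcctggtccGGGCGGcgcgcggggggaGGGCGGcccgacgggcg
Slit2 (chr5:47982905-47983137, plus strand): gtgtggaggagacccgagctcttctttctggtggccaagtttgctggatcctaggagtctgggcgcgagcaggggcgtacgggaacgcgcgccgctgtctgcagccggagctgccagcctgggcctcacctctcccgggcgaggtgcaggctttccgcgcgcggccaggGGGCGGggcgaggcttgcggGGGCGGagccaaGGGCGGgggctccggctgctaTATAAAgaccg
The motifs searched on both strands were the GC box (GGGCGG), the TATA box (TATAAA), the E-box (CACGTG), the AP-1 site (TGANTCA), the STAT site (TTCNNNGAA) and the hypoxia response core (ACGTG), the last of which lies inside every E-box. The stretch of Plxnb1 held 3 GC boxes, and it also lies in an exon of Gm7628 on the other strand. That of Slit2 held 3 GC boxes and 1 TATA box, and the stretches of Efna1 and Sema4d held no match to any of these letters. Over the whole 250 bases, 53 of the 75 annotated starts of 59 members held a GC box (70.7%), against 32.7% of all 32851 mouse starts in the same table. A TATA box was in 2.67% of the member starts and in 12.4% of all starts, and the member windows were also richer in G and C, with a median of 64.4% against 52.4% over all starts. The other motifs were in 5.33% (E-box), 4% (AP-1 site), 2.67% (STAT site) and 16% (hypoxia response core) of member starts, against 6.02%, 6.75%, 7.02% and 16.6% of all starts. These matches describe the letters of the windows and say nothing of factors bound there.

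To compare genes with each other, mean CPM over the 12 libraries was divided by transcript length in kb. By this level the most abundant member was Sema7a, a membrane-anchored semaphorin that binds plexin C1 and integrins, at 99.6 CPM per kb. It was followed by Ephb6, an Eph receptor without kinase activity, at 69.3 CPM per kb, Sema6b, a transmembrane semaphorin that binds A-type plexins, at 43.2 CPM per kb, and the netrin receptor Unc5a at 37.7 CPM per kb. Epha4, the Eph receptor with the broadest choice of ephrins, had 26.1 CPM per kb. The members with the most CPM in other families had lower levels per kb, with Efnb3, an ephrin known in myelin, at 20.4 CPM per kb, Plxna1 at 14.1, Robo2 at 12.3, Nrp1 at 8.79, Slit1 at 7.82 and the netrin gene Ntn3 at 2.68 CPM per kb. Per kb, Ntn5 was above Ntn3, at 4.58 CPM per kb. Exons of Ntn5 overlap Sec1 on the other strand over 519 bases. Those of Ntn3 overlap Tbc1d24 on the same strand over 89 bases and BC028777 on the other strand over 139 bases. Those of Plxna1 overlap Gm26811 on the other strand over 970 bases, so these levels are uncertain. At the other end lay Efna4 at 0.105 CPM per kb, with at most 11 counts in any library, which was the 1 member that failed edgeR's filter on low counts, so that 68 were tested in each comparison. Dcc, the attractive netrin receptor, was at 1.42 CPM per kb, a small part of the level of Unc5a.

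**Figure D1:**
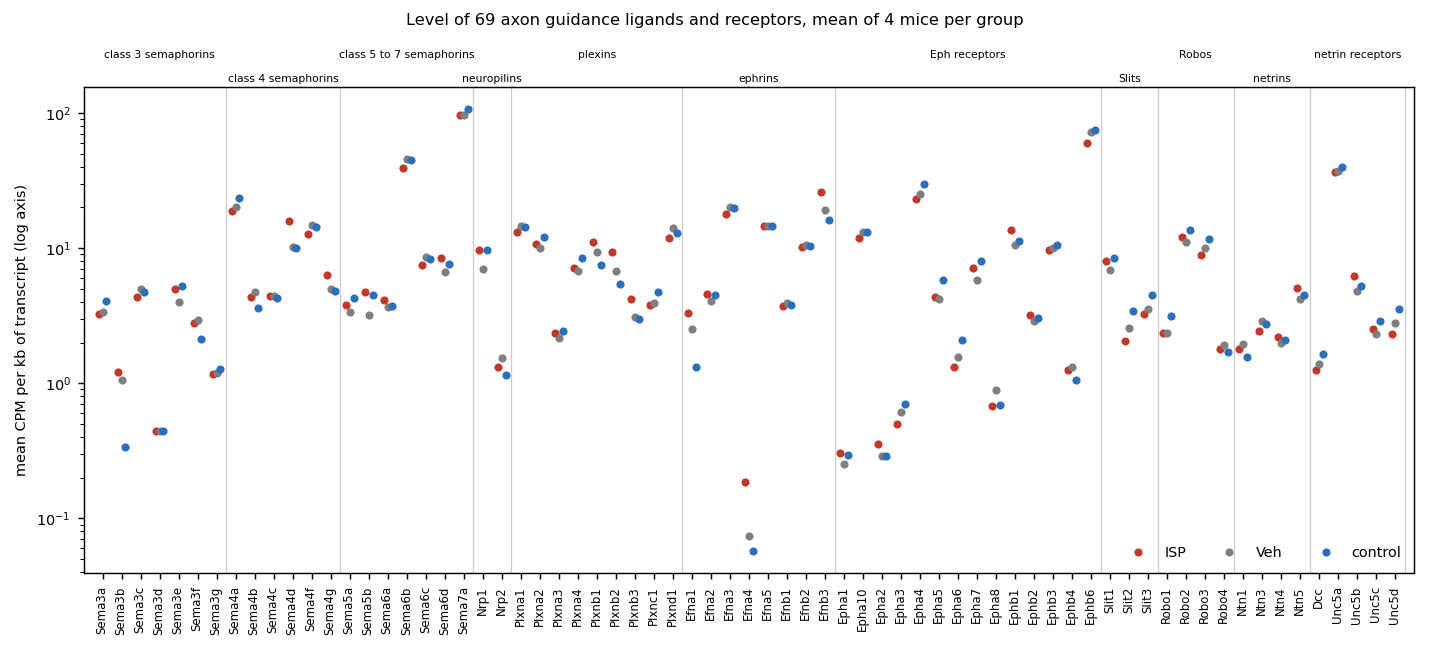
Mean CPM per kb of transcript (log axis) of all 69 members, grouped by family, with 1 point for ISP (red), Veh (grey) and control (blue), each the mean of 4 mice. Sema7a, Ephb6, Sema6b and Unc5a have the highest levels, and for most members the points of the 3 groups lie close together beside the spread between genes.

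Between ISP and Veh, the comparison that asks what the peptide changed, edgeR called none of the 68 members. The members with the smallest p-values were 7 semaphorins, 1 neuropilin and 2 EphB receptors, all with differences under 1 on the log2 scale. The call was an edgeR quasi-likelihood p, adjusted over all 15214 genes tested, under 0.1, and it was met by 0% of genes in the higher and 0% in the lower direction. At an unadjusted p under 0.05, 8 members were higher with ISP (11.8%, where 7.87% of all genes were) and 5 were lower (7.35%, where 7.47% of all genes were), so the lower share lay at the background. DESeq2 called 3 members higher, 4.41% of those with an adjusted p, where it called 1.15% of all genes, and 0 members lower, where it called 1.35%. The median log2 fold change was -0.01 over the members and 0.02 over all genes tested. In all comparisons the fitted differences run as the first-named group over the second.

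Sema4d had the smallest p of the members. It encodes a transmembrane semaphorin of class 4 that binds plexin B1 and is known to be made by oligodendrocytes and immune cells. Its level was 63.2, 77.2, 52.6 and 93.2 CPM in ISP mice and 38.9, 56.9, 44.5 and 43.4 CPM in Veh mice, in the order of mice given in the opening. Only ISP 16 lay within the range of the Veh mice, below Veh 6. With a log2 fold change of 0.64 (standard error 0.17, edgeR adjusted p = 0.262), it was one of the 3 members that DESeq2 called (DESeq2 adjusted p = 0.033), and its log2 fold change was 0.33 without ISP 14 and ISP 18. The oligodendrocyte list, described by library further on, was also highest in ISP 18 and, among Veh mice, in Veh 6. The highest mice for Sema4d, ISP 18 and ISP 14, were also the highest on the microglia and macrophage list and on the reactive astrocyte list. In bulk tissue more or fewer cells of a type and more or less RNA per cell cannot be told apart. Sema4g, another semaphorin of class 4, was at 25.7, 31.4, 25.2 and 32.9 CPM in ISP mice and 19.2, 26.2, 22.4 and 23.4 CPM in Veh mice, a log2 fold change of 0.34 (standard error 0.12, edgeR adjusted p = 0.277) that was 0.16 without ISP 14 and ISP 18. ISP 14 and ISP 18 were the highest of these 8 mice, and the other ISP mice overlapped Veh 6.

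The other members that DESeq2 called were Nrp1 and Ephb1. Nrp1 encodes neuropilin 1, the co-receptor of Sema3a that also binds VEGF. Its level was 30.9, 36.8, 34.7 and 35.9 CPM in ISP mice and 20.7, 32.1, 25.7 and 22.4 CPM in Veh mice, where Veh 6 was the only Veh mouse within the range of the ISP mice. The log2 fold change was 0.45 (standard error 0.13, edgeR adjusted p = 0.262), with a DESeq2 adjusted p of 0.0951, and it was 0.37 without ISP 14 and ISP 18. With Veh 6 left out, edgeR called Nrp1 as the only member, at a log2 fold change of 0.59, and that fit called 72 of 15367 genes. Ephb1, a receptor of the B-type ephrins that takes part in axon branching and dendritic spines, was at 71.0, 62.4, 56.8 and 64.6 CPM in ISP mice and 43.1, 57.7, 51.9 and 44.8 CPM in Veh mice. Veh 6 again overlapped the ISP mice, just above ISP 16, and the log2 fold change was 0.37 (standard error 0.11, edgeR adjusted p = 0.262), with a DESeq2 adjusted p of 0.0998.

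Sema6d was the only member whose ISP mice all lay above the Veh mice, where 2.82% of all genes tested showed that pattern. This transmembrane semaphorin, which binds plexin A1, was at 50.4, 57.0, 52.9 and 57.7 CPM in ISP mice and 35.1, 49.8, 41.9 and 46.1 CPM in Veh mice, a log2 fold change of 0.33 (standard error 0.11, edgeR adjusted p = 0.267). ISP 12 was only just above Veh 6. Sema4f, a class 4 semaphorin known in neurons and glial precursors, was the only member with all ISP mice below the Veh mice, where 3.96% of all genes tested were. Its level was 53.2, 53.4, 55.6 and 46.9 CPM in ISP mice and 63.4, 59.8, 63.3 and 56.0 CPM in Veh mice, a log2 fold change of -0.21 (standard error 0.08, edgeR adjusted p = 0.277), and the gap between ISP 16 and Veh 10 was narrow.

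Of the remaining members among the 10 smallest p-values, Sema3e, a secreted semaphorin that acts on plexin D1 without a neuropilin, was at 38.8, 28.2, 35.2 and 35.6 CPM in ISP mice and 25.6, 30.9, 29.4 and 23.9 CPM in Veh mice, a log2 fold change of 0.32 (standard error 0.12, edgeR adjusted p = 0.277). Its receptor Plxnd1, known in vessels and cortical neurons, was at 66.0, 86.9, 95.9 and 80.8 CPM in ISP mice and 104, 61.8, 83.3 and 138 CPM in Veh mice. ISP 14 fell within the Veh range for Sema3e, and for Plxnd1 the Veh range held all 4 ISP mice. Sema5b, a semaphorin with thrombospondin repeats, was at 23.9, 17.6, 18.1 and 22.3 CPM in ISP mice and 11.5, 21.3, 13.7 and 9.10 CPM in Veh mice, a log2 fold change of 0.56 (standard error 0.23, edgeR adjusted p = 0.295). Veh 6 was within the ISP range for Sema5b as well. Sema6b was at 162, 133, 141 and 148 CPM in ISP mice and 186, 163, 175 and 159.6 CPM in Veh mice, a log2 fold change of -0.23 (standard error 0.08, edgeR adjusted p = 0.277), and Ephb6 had -0.27, or -0.16 without ISP 14 and ISP 18. With GC content and length trends removed, Sema3e had 0.17 and Sema6b -0.11. For Sema6b, ISP 12 lay within the Veh range and the other ISP mice below it. Outside these 10, Slit2, Unc5d and Plxnb1 had an unadjusted p under 0.05, with log2 fold changes of -0.33, -0.29 and 0.26. Without ISP 14 and ISP 18 these were -0.16, -0.29 and 0.06, and Slit2 had -0.20 without ISP 18 alone. With standard errors of 0.08 to 0.23 for the members named here, a miss of the threshold does not show that levels were equal.

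**Figure D2:**
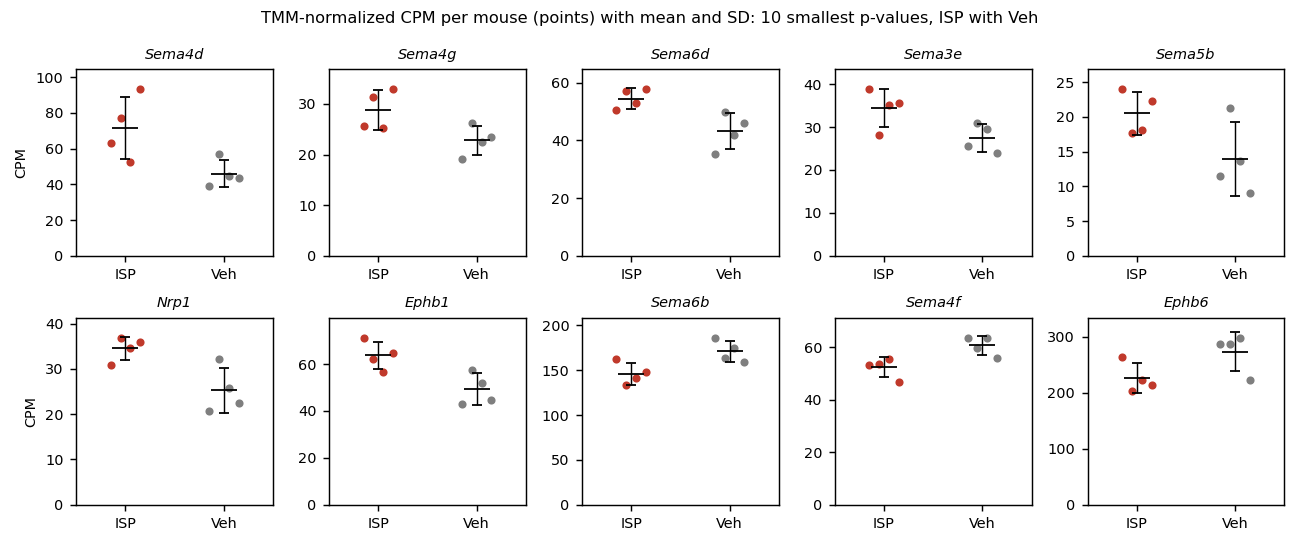
TMM-normalized CPM (axes from 0) of the 10 members with the smallest p between ISP (left) and Veh (right), with 1 point per mouse and the mean and SD of 4 mice. Sema6d and Sema4f are separated without overlap, and in the others at least 1 mouse lies within the range of the other group.

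Against control, the members higher in ISP mice were Efna1, Plxnb1, Plxnb2, Sema4d and Sema4g, and those lower were Slit2, Slit3, Epha4, Epha5, Ephb6, Unc5d and Plxnc1. Of the 68 members, edgeR called 5 higher (7.35%) and 7 lower (10.3%), where it called 6.74% of all 15232 genes tested higher and 3.42% lower. DESeq2 called 5 members higher and 11 lower, 7.25% and 15.9%, where its calls took 8.61% and 5.09% of all genes with an adjusted p. The share called higher was thus near the background and the share called lower above it. Groups did not overlap for 4 members that were higher and 7 that were lower, where 7.14% and 4.76% of all genes were separated in those directions. The median log2 fold change was -0.08 over members and -0.01 over all genes. By family, the Eph receptors had 3 of 14 lower, the Slits 2 of 3 lower, the plexins 2 of 9 higher and 1 lower, the class 4 semaphorins 2 of 6 higher, the netrin receptors 1 of 5 lower and the ephrins 1 of 7 higher. The Robos, netrins, neuropilins and the other semaphorins had 0 called.

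Efna1 encodes ephrin A1, a ligand of EphA receptors that is induced by inflammatory cytokines and known in endothelium and astrocytes. It is a gene of chromosome 3 (chr3:89271733-89281142, minus strand, GRCm38, GENCODE M21) with low counts here. Efna1 was at 5.15, 4.60, 4.44 and 7.45 CPM in ISP mice, 5.75, 3.29, 3.63 and 3.91 CPM in Veh mice and 2.09, 2.31, 2.29 and 1.89 CPM in control mice. All 8 ISP and Veh mice lay above all 4 control mice. The mean was 5.41 ± 1.39 CPM in ISP and 2.15 ± 0.198 CPM in control (SD, n = 4 each), a log2 fold change of 1.33 (standard error 0.24, edgeR adjusted p = 0.022), and it was 1.16, no longer called, without ISP 14 and ISP 18. Of the other ephrins, Efnb2, the ligand of Ephb4 in vessels, was at 49.2, 50.1 and 50.0 CPM on average in ISP, Veh and control mice.

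Among the Eph receptors, Epha4, a receptor of ephrins A and B on neurons and astrocytes that is known to restrain axon growth after injury, was at 144, 173, 159.5 and 113 CPM in ISP mice, 151, 153, 150.4 and 179.6 CPM in Veh mice and 184, 199.9, 183 and 193 CPM in control mice. Every ISP and Veh mouse was below every control mouse, and ISP 18 was the lowest of the 12. ISP with control gave a log2 fold change of -0.37 (standard error 0.11, edgeR adjusted p = 0.0817). Epha5, an EphA receptor of neurons in maps and synapses, was at 33.1, 33.1, 33.1 and 27.4 CPM in ISP mice, 26.9, 34.0, 28.6 and 33.2 CPM in Veh mice and 37.4, 49.1, 47.6 and 36.0 CPM in control mice, with no overlap of ISP or Veh mice with control mice. Its log2 fold change was -0.43 (standard error 0.12, edgeR adjusted p = 0.059). Ephb6 was at 264, 204, 223 and 214 CPM in ISP mice, 286, 287, 297 and 222 CPM in Veh mice and 255, 267, 333 and 276 CPM in control mice, and it overlapped between all groups, since ISP 12 was above control 19. Ephb6 had a difference of -0.32 (standard error 0.10, edgeR adjusted p = 0.0919). Without ISP 14 and ISP 18 these values were -0.32 for Epha4, -0.36 for Epha5 and -0.21 for Ephb6, none of them called. Ephb4 was at 4.48, 6.00, 4.82 and 6.30 CPM in ISP mice, 4.92, 5.01, 4.81 and 8.01 CPM in Veh mice and 4.22, 3.60, 3.99 and 6.43 CPM in control mice, with Veh 10 above all others.

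Plxnb1 and Plxnb2 encode plexin B1 and plexin B2, the receptors of class 4 semaphorins. Plxnb1 lies on chromosome 9 (chr9:109095389-109119917, plus strand, GRCm38), where 257 bases of its exons overlap Gm7628 on the other strand, so reads there could not be told apart if strand was not used in counting. Plxnb1 was at 81.5, 107, 85.4 and 110.5 CPM in ISP mice, 76.0, 75.7, 75.2 and 94.3 CPM in Veh mice and 60.9, 66.4, 66.5 and 65.8 CPM in control mice. Its ISP and Veh mice were all above the control mice, and the highest were ISP 14, ISP 18 and Veh 10. In ISP with control the log2 fold change was 0.57 (standard error 0.11, edgeR adjusted p = 0.0223), and 0.37 without ISP 14 and ISP 18, no longer called. Plxnb2, known in microglia and macrophages after injury, was at 39.8, 70.7, 37.2 and 94.4 CPM in ISP mice, 40.9, 46.8, 35.3 and 53.6 CPM in Veh mice and 30.4, 38.3, 35.6 and 36.0 CPM in control mice. ISP 14 and ISP 18 stood above the rest, while ISP 16 lay within the control range and ISP 12 just above it. The log2 fold change was 0.79 (standard error 0.25, edgeR adjusted p = 0.0895), and 0.14 without ISP 14 and ISP 18, so this call rests on those mice. DESeq2 did not call it.

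Both called semaphorins were of class 4. Sema4d (on chromosome 13, chr13:51685529-51793747, minus strand, GRCm38) was at 36.7, 47.7, 51.9 and 43.7 CPM in control mice, all below its ISP mice, with ISP 16 just above control 36. The log2 fold change of ISP with control was 0.67 (standard error 0.16, edgeR adjusted p = 0.0403), and 0.37, not called, without ISP 14 and ISP 18. Sema4g was at 21.5, 22.8, 22.2 and 21.5 CPM in control mice, again below all ISP mice, a log2 fold change of 0.39 (standard error 0.11, edgeR adjusted p = 0.0612) that was 0.21, not called, without ISP 14 and ISP 18. The most abundant class 4 semaphorin by CPM, Sema4a, had -0.32, or -0.14 without ISP 14 and ISP 18, and was not called.

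Slit2, a secreted repellent of the Slit family that binds Robo1 and Robo2, lies on chromosome 5 (chr5:47983138-48307733, plus strand, GRCm38) and was at 24.4, 20.7, 21.6 and 14.9 CPM in ISP mice, 23.7, 27.7, 26.5 and 24.4 CPM in Veh mice and 28.8, 38.3, 35.9 and 33.2 CPM in control mice. Every Veh and ISP mouse was below every control mouse, and ISP 18 was the lowest. The mean was 20.4 ± 4.01 CPM in ISP and 34.1 ± 4.06 CPM in control (SD, n = 4 each), a log2 fold change of -0.75 (standard error 0.14, edgeR adjusted p = 0.0254), and -0.56, no longer called, without ISP 14 and ISP 18. Slit3 was at 17.1, 18.6, 20.3 and 12.1 CPM in ISP mice and 23.1, 26.2, 21.3 and 23.4 CPM in control mice, without overlap, a log2 fold change of -0.47 (standard error 0.15, edgeR adjusted p = 0.0897). Slit1, the Slit with the most reads, was at 40.4, 34.9 and 43.0 CPM on average in ISP, Veh and control mice and was not called. The receptor Robo1 was at 22.1, 19.2, 16.1 and 14.0 CPM in ISP mice, 14.8, 18.4, 17.3 and 20.1 CPM in Veh mice and 21.5, 27.6, 22.0 and 24.6 CPM in control mice. Its Veh mice were all below the control mice, while ISP 12 lay within the control range, and edgeR did not call it in either comparison, with log2 fold changes of -0.43 for ISP and -0.42 for Veh against control, while DESeq2 called it in both (DESeq2 adjusted p = 0.0734 for ISP and 0.0403 for Veh).

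Unc5d, a repulsive netrin receptor that also binds FLRT proteins and marks migrating upper-layer neurons in development, was at 18.8, 17.9, 23.4 and 24.6 CPM in ISP mice, 24.5, 22.9, 27.9 and 28.2 CPM in Veh mice and 30.1, 39.0, 23.3 and 37.8 CPM in control mice. Control 36 lay within the ISP range, and the other 3 control mice were above all of them. The log2 fold change was -0.62 (standard error 0.16, edgeR adjusted p = 0.054), and -0.62 without ISP 14 and ISP 18, where it was no longer called. Plxnc1, the receptor of Sema7a, was at 27.4, 29.7, 30.1 and 22.7 CPM in ISP mice, 25.9, 25.9, 31.5 and 31.2 CPM in Veh mice and 35.4, 36.8, 30.7 and 36.3 CPM in control mice, with all ISP mice below the control mice. Its log2 fold change was -0.34 (standard error 0.11, edgeR adjusted p = 0.0906), and 115 bases of its exons overlap Gm48718 on the same strand. Sema7a itself was at 327, 282, 346 and 316 CPM in ISP mice and 358, 359, 351 and 336 CPM in control mice and was not called. With ISP 14 and ISP 18 both left out, edgeR called 0 of the 68 members and 90 of all genes, against 1547 of all genes with them.

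**Figure D3:**
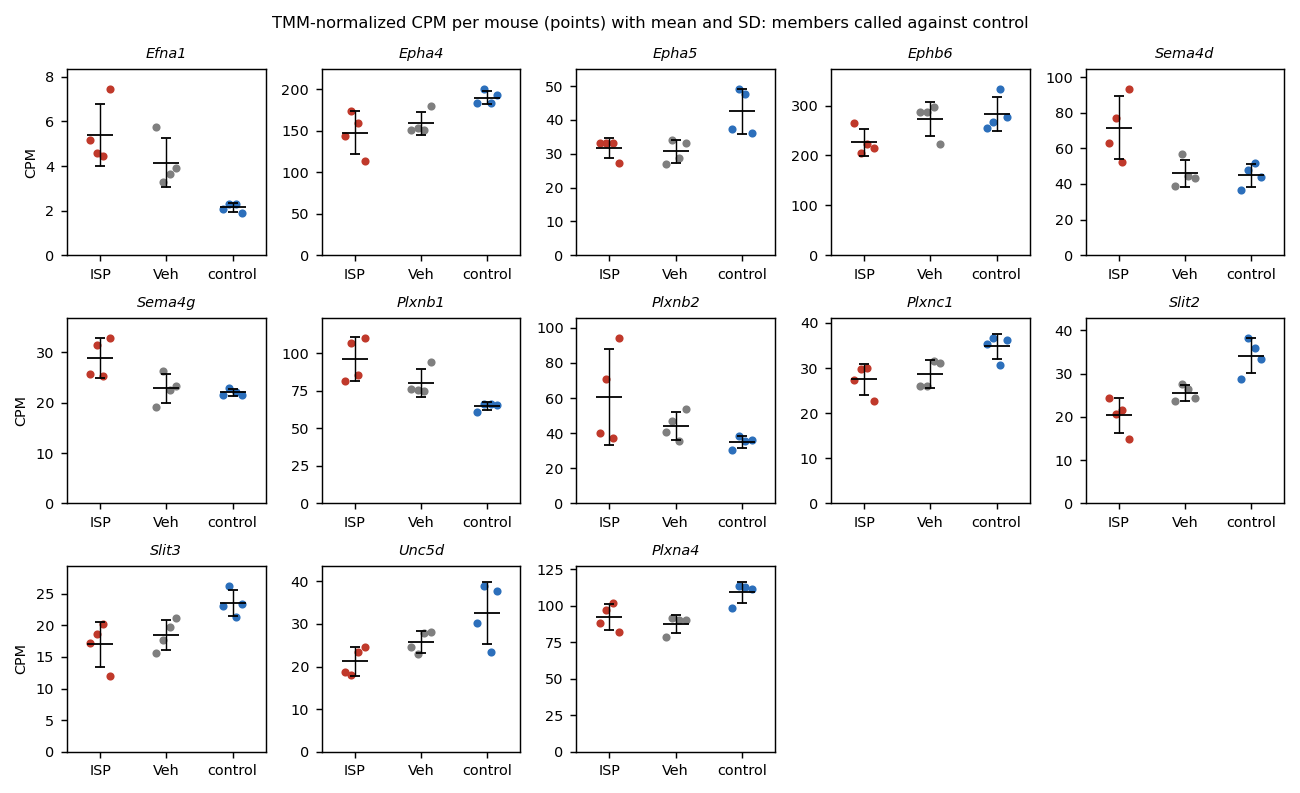
TMM-normalized CPM (axes from 0) in ISP (left), Veh (middle) and control (right) mice for the 13 members that edgeR called in ISP or Veh against control, with 1 point per mouse and the mean and SD of 4 mice. Efna1, Plxnb1, Slit2, Slit3, Epha4 and Epha5 separate both groups from control, whereas Plxnb2 is raised in 2 ISP mice.

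Between Veh and control, 3 members passed the test. Efna1 rose and Plxna4 and Slit2 fell. They made up 1.47% higher and 2.94% lower of the 68 members, where edgeR called 1.03% of all 15126 genes tested higher and 1.20% lower. DESeq2 called 4 higher and 9 lower, 5.80% and 13.0% of 69, where 2.83% and 3.63% of all genes with an adjusted p were called. Groups did not overlap for 3 members that were higher and 8 that were lower, where 4.20% and 5.45% of all genes were separated in those directions. The median log2 fold change was -0.06 over members and 0.02 over all genes.

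The difference of Efna1 was 0.95 (standard error 0.25, edgeR adjusted p = 0.0963) on the log2 scale, with a mean of 4.15 ± 1.10 CPM in Veh against 2.15 ± 0.198 CPM in control mice (SD, n = 4 each). Slit2 had -0.40 (standard error 0.10, edgeR adjusted p = 0.0964). Plxna4, which encodes plexin A4, the partner of neuropilin 1 in the Sema3a receptor, was at 88.3, 97.4, 102 and 81.9 CPM in ISP mice, 78.4, 91.5, 89.9 and 90.2 CPM in Veh mice and 98.7, 114, 113 and 111 CPM in control mice. All Veh mice were below all control mice, and ISP 16 lay within the control range. Its log2 fold change was -0.31 (standard error 0.08, edgeR adjusted p = 0.0964), and 110 bases of its exons overlap Plxna4os3 on the other strand. Nrp1, the other part of that receptor, had -0.46 and was not called by edgeR, while DESeq2 called it (DESeq2 adjusted p = 0.073). It also passed in edgeR without Veh 6 (edgeR adjusted p = 0.0802) and with GC content and length trends removed (edgeR adjusted p = 0.0967). The ligand Sema3a was not called and was at 18.7, 19.2, 19.5 and 23.1 CPM in Veh mice and 25.6, 26.6, 20.2 and 24.1 CPM in control mice. The 3 calls of the main fit, Efna1, Slit2 and Plxna4, lie close under the threshold. Each was lost when Veh 2, Veh 8, Veh 10, control 21, control 36 or control 38 was left out, and when the trends with GC content and transcript length were removed, where Slit2 had -0.21 and Plxna4 -0.16. Without Veh 6, 5 members were called but Plxna4 was lost (edgeR adjusted p = 0.102). Without control 19, 4 were called but Efna1 was lost (edgeR adjusted p = 0.123).

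The comparisons with control share the same 4 control mice, so their values are set side by side and not counted as support for each other. The log2 fold change of Slit2 against control was -0.75 in ISP and -0.40 in Veh mice. Efna1 had 1.33 in ISP and 0.95 in Veh mice, Epha4 had -0.37 in ISP and -0.25 in Veh mice, and Epha5 had -0.43 in ISP and -0.46 in Veh mice. With GC content and length trends removed, the Veh values of Epha4 and Epha5 were -0.16 and -0.25. Sema4d had 71.5 CPM on average in ISP mice, 45.9 CPM in Veh mice and 45.0 CPM in control mice, so that Veh and control were near each other. Nrp1 differed in another way, since its means were 34.5 CPM in ISP, 25.2 CPM in Veh and 35.1 CPM in control mice, and here ISP and control were near each other.

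**Figure D4:**
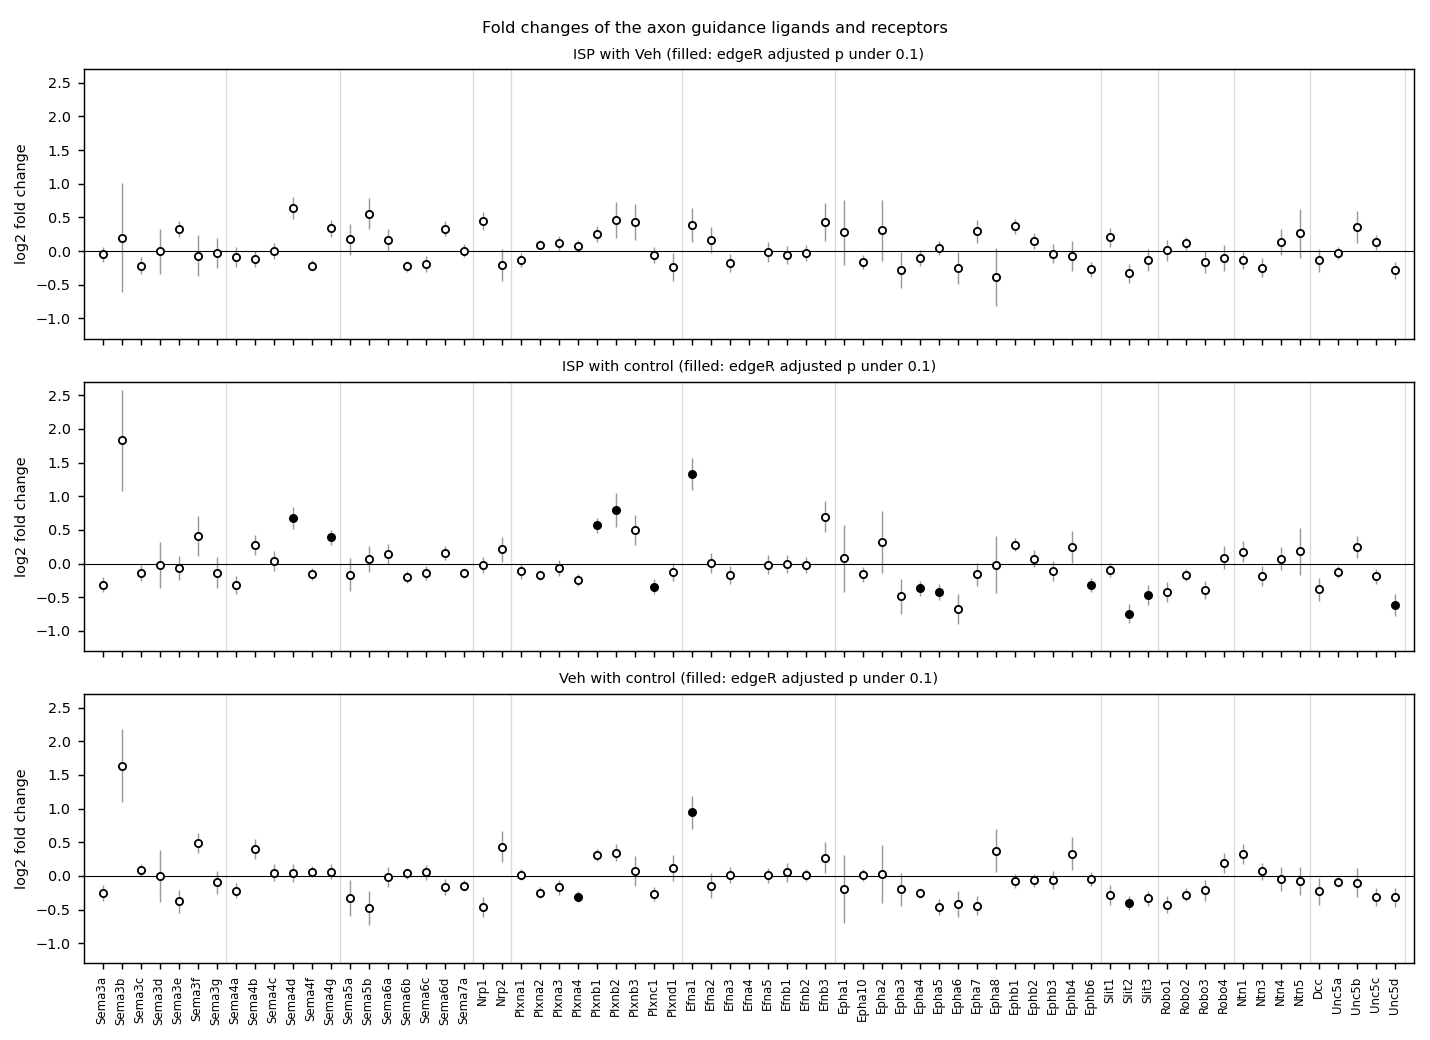
Log2 fold changes from edgeR (points) with their standard errors (bars) of the 68 tested members, grouped by family, for ISP with Veh (top), ISP with control (middle) and Veh with control (bottom). Filled points had an edgeR adjusted p under 0.1, which holds for 0, 12 and 3 members.

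Several members were highest in the libraries where marker lists of glia were highest. The summed level of 9 oligodendrocyte genes was 7574, 6910.0, 4864 and 11670.0 CPM in ISP mice, 3649, 7207, 4069 and 2902 CPM in Veh mice and 3723, 4740.0, 5104 and 3389 CPM in control mice. It was highest in ISP 18 and, among Veh mice, in Veh 6, and lowest in Veh 10. Efnb3, an ephrin of the B type in myelin and midline glia, was at 83.8, 72.9, 51.5 and 122 CPM in ISP mice, 55.4, 96.6, 53.0 and 39.9 CPM in Veh mice and 38.7, 62.4, 60.9 and 43.0 CPM in control mice, and so was also highest in ISP 18 and highest of the Veh mice in Veh 6. Plxnb3, a plexin known in oligodendrocytes, was chosen after its values were seen and was at 23.9, 19.4, 19.3 and 38.1 CPM in ISP mice, 13.9, 28.7, 18.6 and 13.3 CPM in Veh mice and 15.1, 21.3, 21.3 and 13.9 CPM in control mice. Unc5b, chosen in the same way, had 48.5 CPM in ISP 18 and 42.9 CPM in Veh 6, where the other 10 libraries lay between 19.8 and 36.7 CPM. Sema4d and Sema4g were highest in ISP 18 too, and highest of the Veh mice in Veh 6. Next after ISP 18 for both came ISP 14, at 77.2 and 31.4 CPM. There the oligodendrocyte list was below ISP 12 and Veh 6, while the microglia and macrophage list was the highest of all libraries, at 1548 CPM. No gene of the oligodendrocyte list was at 0, 7 of the 9 rose in ISP with control by edgeR, and 0 were called in the other comparisons. The part of these cells in the differences of Sema4d and Efnb3 was not tested.

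The microglia and macrophage list was 472, 1548, 432 and 1428 CPM in ISP mice, 446, 388, 372 and 685 CPM in Veh mice and 274 to 370.2 CPM in control mice, with 9 of its 10 genes called higher in ISP with control and 2 in Veh with control. Plxnb1 and Plxnb2 were highest in the same mice as that list, ISP 14 and ISP 18, and highest of the Veh mice in Veh 10. The reactive astrocyte list was highest in the same mice, at 2952 CPM in ISP 18, 1752 CPM in ISP 14 and 778 CPM in Veh 10. Like both plexins, it was higher in ISP 18 than in ISP 14, while the microglia and macrophage list was higher in ISP 14. Slit2, Slit3, Epha4 and Plxnc1 had the lowest level of all 12 libraries in ISP 18, where the neuronal list was also lowest. The other members called lower in ISP with control had their lowest level elsewhere, Ephb6 and Unc5d in ISP 14 and Epha5 in Veh 2. Unc5d in ISP 18, at 24.6 CPM, was the highest of the ISP mice. Among neurons, the upper-layer list was 409 to 621 CPM in ISP, 439.6 to 877 CPM in Veh and 408 to 863 CPM in control mice, and the deep-layer list 296 to 417, 191 to 389 and 239 to 395 CPM in the same order of groups. The part of these lists in the member differences was not tested.

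**Figure D5:**
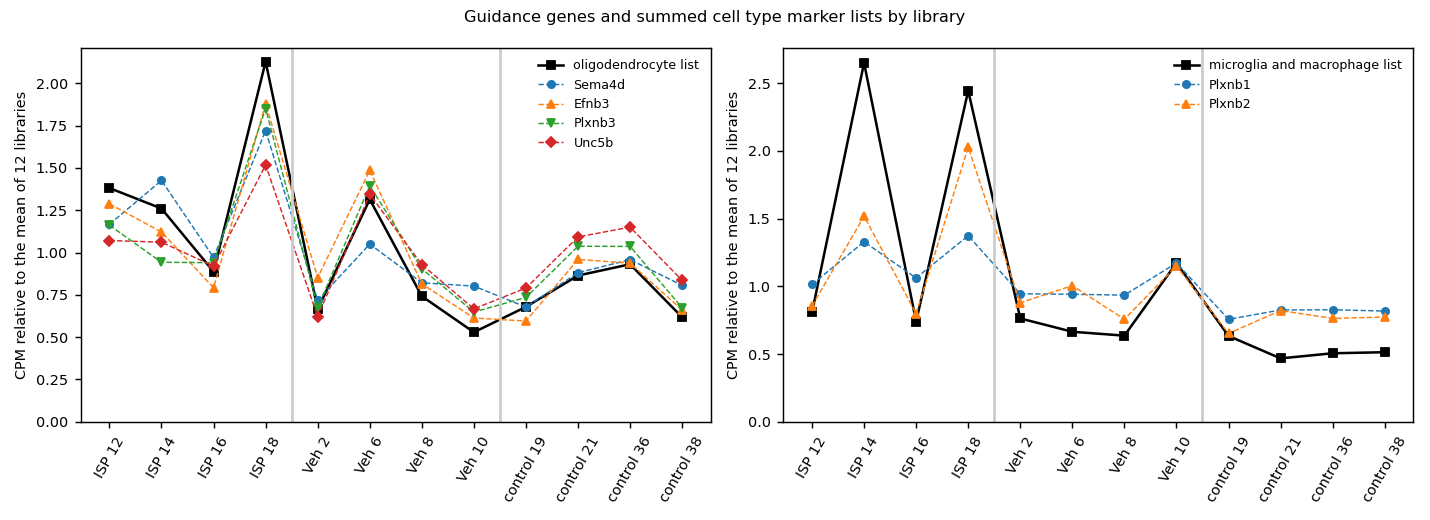
Level in each of the 12 libraries relative to the mean of all 12, for 4 members with the oligodendrocyte list (left) and for 2 plexins with the microglia and macrophage list (right), with ISP, Veh and control mice from left to right. The members on the left are highest in ISP 18 and, among Veh mice, in Veh 6, as is the list, and those on the right are highest in ISP 14 and ISP 18. The reactive astrocyte list, not drawn, was also highest in ISP 14 and ISP 18.

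The netrins and the attractive receptor Dcc had no call. Ntn1, the classical netrin, was at 9.84, 9.98, 10.3 and 10.8 CPM in ISP mice, 10.2, 12.2, 10.3 and 12.3 CPM in Veh mice and 9.50, 7.03, 10.4 and 9.27 CPM in control mice, and Dcc at 14.4, 13.3, 12.3 and 11.9 CPM in ISP mice, 10.6, 19.2, 13.7 and 13.4 CPM in Veh mice and 13.8, 21.3, 19.8 and 12.4 CPM in control mice. Both overlapped between all groups. Unc5a was at 145, 148 and 158 CPM, Robo2 at 104, 95.6 and 117 CPM, and Plxna1 at 119.9, 131 and 129.9 CPM on average in ISP, Veh and control mice. The other 34 members, not named by the rule for named genes, ranged from 0.105 to 19.3 CPM per kb. That rule names every member with an edgeR call, so none of them could have one. In Veh with control, DESeq2 called Sema3b and Sema3f higher and Plxna2 and Epha7 lower (DESeq2 adjusted p = 0.0556, 0.0672, 0.0563 and 0.06). In ISP with control it called Epha6 and Robo3 lower (DESeq2 adjusted p = 0.0589 and 0.0629). Sema3b had the largest log2 fold changes of any member, 1.64 in Veh and 1.83 in ISP against control. Its level was 11.9 CPM in ISP 18, 8.3 CPM in Veh 6 and at most 2.97 CPM elsewhere.

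Partners of these families outside the rule, 19 genes in the table of which 18 were tested, had 0 calls between ISP and Veh. In ISP with control, edgeR called 1 of the 18 higher and 3 lower, where it called 6.74% and 3.42% of all genes. Rgma, a repulsive ligand of neogenin, rose, with 71.9 ± 10.6 CPM in ISP and 48.4 ± 5.19 CPM in control mice (SD, n = 4 each) and a log2 fold change of 0.57 (standard error 0.11, edgeR adjusted p = 0.0273). Vegfa, which shares neuropilin 1 with Sema3a, fell, with 50.3 ± 3.93 CPM in ISP and 72.8 ± 7.15 CPM in control mice (SD, n = 4 each) and a log2 fold change of -0.53 (standard error 0.09, edgeR adjusted p = 0.0205). It was also the 1 partner called in Veh with control, at -0.35 (standard error 0.09, edgeR adjusted p = 0.0945). Nrcam, an adhesion molecule in neuropilin complexes, and Ntng1, a membrane-anchored netrin G, had -0.27 and -0.46 in ISP with control. Of 51 cytoplasmic effectors, 4 were higher and 2 lower in ISP with control, 0 higher and 1 lower in Veh with control, and 0 were called between ISP and Veh. The shares of all genes called were 6.74% higher and 3.42% lower in ISP with control and 1.03% higher and 1.20% lower in Veh with control, so the effector counts lay near the background. Rock2, a kinase that acts on actomyosin contraction, fell in both comparisons with control, with log2 fold changes of -0.41 (standard error 0.11, edgeR adjusted p = 0.0496) for ISP and -0.42 (standard error 0.07, edgeR adjusted p = 0.0464) for Veh. Fes, a kinase that acts downstream of plexin A1, had 1.32, Vasp, an actin regulator, 0.64, Pak2 0.39 and Kalrn, an exchange factor for Rac, -0.31 in ISP with control. All of these passed edgeR's threshold. Without ISP 14 and ISP 18, 0 partners and 0 effectors were called in ISP with control, and the log2 fold changes were 0.44 for Rgma, -0.44 for Vegfa, -0.26 for Rock2 and 0.54 for Fes.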

How the data were processed

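RNA from peri-infarct cortex of 12 mice (4 per group, 1 library each) was used. The authors aligned reads to mm10 with HISAT2, and the deposited table holds their raw read counts per gene from HTSeq at default settings; versions and strand are not given in the sources used here, so genes whose exons overlap others are uncertain. The authors tested counts with DESeq2. Here a separate edgeR fit (edgeR 4.0.16 under R 4.3.3) was made for each comparison from its 8 libraries, with filterByExpr, TMM and the two-sided quasi-likelihood test, with Benjamini-Hochberg adjusted p over all genes tested, called under 0.1. Levels are TMM-normalized CPM over all 12 libraries, per kb of the longest GENCODE M21 transcript with a RefSeq match. Groups came from the labels, which name mice and no batch, so p-values measure the spread between these mice. The 18 within-group library pairs all differed beyond counting noise.

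Named genes were the members called in any comparison, the 10 smallest p for ISP with Veh, the highest CPM of each of 11 families and known partners. Members and lists were chosen with earlier results of these data known. Alternatives were DESeq2 1.42.0, its size factors, 2 other filters, all 12 libraries in 1 fit, an adjusted p of 0.05, each library left out, ISP 14 and ISP 18 left out and, added after seeing the data, GC content and length trends removed. The scripts were tested on simulated counts with known changes. For ISP with Veh, edgeR found 28.8% of the changes of 0.5 on the log2 scale and made 16 false calls over 15214 genes. DESeq2 found 37.3% of such changes and made 49 false calls. One item of the effector list is not reported here by name.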

Additional observations from a re-analysis of the deposited data

Results flagged for a closer look

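In groups of 4 mice, a mouse was singled out where its gap to the nearest other took more of the group's range than Dixon's 95% critical value allows, which chance does in about 1 group in 20. Among 105 groups of named members this happened in 8, on the TMM-normalized CPM scale. Veh 10 was highest of its group for Epha4 (179.6 CPM), Ephb4 (8.01 CPM) and Plxnb1 (94.3 CPM) and lowest for Ephb6 (222 CPM). Plxna4 was low in Veh 2 (78.4 CPM) among Veh mice and in control 19 (98.7 CPM) among control mice. Plxnb1 was also low in control 19 (60.9 CPM), and Epha5 in ISP 18 (27.4 CPM). Veh 10 was the Veh mouse with the highest sum of the fibroblast and meninges list, 956.4 CPM where the other Veh mice had 307.9 to 504.5 CPM. It was also the highest Veh mouse on the reactive astrocyte, astrocyte, microglia and macrophage, endothelial, pericyte and smooth muscle, and upper-layer lists. On the neuronal, deep-layer and oligodendrocyte lists, among others, it was the lowest Veh mouse. The part of these lists in the values of the flagged members was not tested.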

How the results depend on the processing

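The count of members called moved with the test and with single mice. For ISP with Veh (0 with edgeR) DESeq2 called 3, and leaving out each library in turn gave 0 to 1, the 1 without Veh 6. For Veh with control (3) DESeq2 called 13, all 12 libraries in 1 fit called 0 and an adjusted p under 0.05 called 0. Leaving out each library gave 0 to 5, with 5 without Veh 6, 4 without control 19, 1 without Veh 10 and 0 without each of the other 5. Calls over all genes moved too, from 337 with all 8 libraries to 402 without Veh 6, 461 without control 19, 6 without Veh 2 or control 36, and 0 without control 21. For ISP with control (12) leaving out ISP 14 and ISP 18 called 0, and an adjusted p under 0.05 called 4. Leaving out each library gave 4 to 17, with 17 without ISP 16, 11 without ISP 12, 6 without control 19, 21 or 36, and 4 without ISP 14, ISP 18 or control 38. Size factors, the other filters, GC content and length trends removed, all 12 libraries in 1 fit and DESeq2 gave 12 to 16 there, and 11 or all 12 of the calls were shared. With GC content and length trends removed, 2 members were called in Veh with control, of which 0 were shared with the 3, and over all genes the ISP with control calls were 925 higher and 797 lower, against 1026 and 521. The cause of these moves was not tested.

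For single members, only differences of named members with an unadjusted p under 0.05 in the main edgeR fit were examined. All alternatives kept the direction of each. Because these differences were selected by p and the alternatives reused most of the same libraries, a reversed direction was unlikely from the start. The kept directions are therefore not counted as support. Leaving out 1 library left a member on the same side of the threshold in 290 cases, most of them members that were not called to begin with, while 67 calls were lost and 11 gained. Under the other alternatives the side was the same in 302 cases, with 31 calls lost and 21 gained. The median level of members was 26.7 CPM under both scalings. No paired analysis was possible because the groups share no replicate numbers. Low members, such as Efna4, are limited by depth.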

Other observations

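Within the control group, mice 21 and 36 differed from mice 19 and 38 in several members at once, a split noticed in the values and given without a test. Sema3e was at 46.2 and 43.3 CPM in control 21 and control 36 and at 24.6 and 29.9 CPM in control 19 and control 38. Epha5 was at 49.1 and 47.6 CPM in control 21 and control 36 and at 37.4 and 36.0 CPM in control 19 and control 38, Dcc at 21.3 and 19.8 CPM and at 13.8 and 12.4 CPM, Nrp1 at 39.6 and 41.2 CPM and at 31.3 and 28.3 CPM, and Sema5a, a transmembrane semaphorin chosen here after its values were seen, at 60.5 and 62.8 CPM and at 30.5 and 30.8 CPM in the same pairs. The deep-layer neuron list was also higher in the first pair, at 335.9 and 394.9 CPM against 239.0 and 271.8 CPM, and the upper-layer list lower, at 606.9 and 408.2 CPM against 862.9 and 782.1 CPM. The oligodendrocyte list was higher in the first pair as well, at 4740.0 and 5104 CPM against 3723 and 3389 CPM. Among Veh mice, Veh 6 had the highest deep-layer and oligodendrocyte sums, 389.0 and 7207 CPM, and it was also the highest Veh mouse for Sema3e, Dcc, Nrp1 and Sema5a.

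Plxnd1 and Nrp2, receptors known in vessels, were highest in Veh 10, at 138.3 and 16.0 CPM, where the sums of the fibroblast and meninges list and of the pericyte and smooth muscle list were highest too. Ephb4 was also highest there, but this did not hold for all members linked to vessels. Efnb2, the ligand of Ephb4, was highest in ISP 16, at 57.2 CPM against 54.2 CPM in Veh 10. Robo4 was highest in Veh 8, at 11.3 CPM against 9.66 CPM in Veh 10.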
